A study of Mus musculus with 6 samples.

Results

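The transcripts of 10 glycolytic enzymes were followed in RNA-seq libraries from the mouse hippocampus. The genes were chosen by name after gene identifiers were mapped to symbols, and all 10 (Aldoa, Aldoc, Tpi1, Gapdh, Pgk1, Eno1, Eno2, Pkm, Ldha and Ldhb) were found among the 55471 genes of the table. The series held 6 libraries, each from the hippocampus of 1 male mouse (C57BL/6 in the labels, C57BL/6J in the methods of the study): 3 p300-ifKOs and 3 control littermates. In p300-ifKOs a floxed Ep300, the gene for the lysine acetyltransferase p300, was recombined in the adult by creERT2, a Cre recombinase that tamoxifen activates. The driver, Camk2a, is active in excitatory forebrain neurons, so glia, interneurons and vessels of the same tissue keep Ep300. The mice were 3 to 6 months old, and tamoxifen had been given to both groups 5 times, from a solution of 20 mg/ml. The protocol names littermates without creERT2 as controls, but Camk2a_creERT2 stands in the description of every control sample. The study reports Arsi and Esr1 as higher in p300-ifKOs than in their controls, and calls this a feature of mice with the Camk2a-creERT2 transgene. No test of the control genotype was made here.

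Glycolysis turns glucose into pyruvate in the cytosol. Aldolase (Aldoa, Aldoc) splits the phosphorylated hexose, Tpi1 interconverts the 2 triose phosphates, Gapdh oxidises glyceraldehyde 3-phosphate, Pgk1 makes the first ATP of the payoff phase, enolase (Eno1, Eno2) makes phosphoenolpyruvate and Pkm makes pyruvate. Lactate dehydrogenase (Ldha, Ldhb) interconverts pyruvate and lactate. In brain, Aldoc is known as the astrocyte-enriched aldolase and Eno2 as the neuron-specific enolase, while Aldoa and Eno1 are made by many cell types. Gapdh is also a common reference gene for quantitative PCR, and the mouse genome holds many processed pseudogenes of it, reverse-transcribed copies of its mRNA.

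Each library held between 23151568 and 28433823 counted reads. Ep300 had 1545, 1474 and 2334 normalized counts (counts divided by the library's size factor) in controls and 478, 1350 and 912 in p300-ifKOs. Every p300-ifKO library was below every control library, as in 3.37% of all genes with a mean normalized count of at least 10. The log2 difference was -0.97 (SE 0.33, unadjusted p = 0.0037, DESeq2 adjusted p = 0.99). A count per gene does not resolve the recombined exon. Across the 12253 genes with a mean normalized count above 100, deviations from the mean followed exonic length differently from library to library. Spearman's rho with length was 0.29, 0.25 and 0.62 in the controls and -0.65, 0.61 and -0.44 in the p300-ifKOs. The part of this trend in the Ep300 values was not tested. Markers of neurons, of each class of glia and of vessels, choroid plexus and blood all had reads, and 0 of these markers were at a count of 0 in every library.

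Reads were 50 bases long and were kept only when aligned with a mapping quality above 10, which drops reads that match several places equally well. The sequence an enzyme shares with its copies therefore sets which of its reads can be counted. Each stretch of 50 bases along the reference mRNA of each enzyme was looked up in all annotated transcripts of other genes. The most copied coding stretch of Gapdh shows the extent. It lies on GRCm38 chr6:125162898-125162947 (minus strand, in an exon) and stood unchanged in transcripts of 84 other genes.
Gapdh: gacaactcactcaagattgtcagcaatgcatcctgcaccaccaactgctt

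Where a copy differs from its parent by 1 base, that base alone can place a read. The next stretch of Gapdh, on chr6:125163157-125163206 (minus strand), differs at 1 base, in capitals, from the pseudogene 3000002C10Rik on chr9:109831072-109831121 (minus strand), while 43 other genes hold the Gapdh letters unchanged.
Gapdh: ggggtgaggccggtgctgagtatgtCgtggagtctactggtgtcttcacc
3000002C10Rik: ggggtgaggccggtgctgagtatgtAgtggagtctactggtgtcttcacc

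The isoforms of one enzyme, in contrast, were far enough apart to be counted separately. Eno1 and Eno2 have coding sequences of 1302 bases each with 75.1% identical bases, and the longest identical run was 20 bases. No 50-base stretch was shared between Eno1 and Eno2, between Aldoa and Aldoc or between Ldha and Ldhb (0 in each pair). A coding stretch of Eno1 held by 5 other genes lies on chr4:150245115-150245164 (plus strand). It is shown beside the same coding positions of Eno2 on chr6:124766278-124766327 (minus strand), with the 6 bases that differ in capitals.
Eno1: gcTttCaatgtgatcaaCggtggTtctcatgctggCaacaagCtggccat
Eno2: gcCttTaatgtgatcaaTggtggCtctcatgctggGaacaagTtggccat

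The enzymes fell on a wide range of sharing. In Gapdh, 90.4% of the stretches of the mRNA and 100% of those within the coding sequence were also found in another annotated gene, and 117 of 1223 stretches were at Gapdh alone. The median stretch of Gapdh stood in 37 other genes. Pgk1 was also shared along 100% of its coding stretches, and 569 of its 1776 stretches, or 32.0%, were found at Pgk1 alone. Eno1 was shared over 72.2% of its mRNA and 83.3% of its coding stretches. Pkm (30.5%), Ldhb (27.0%), Ldha (17.1%), Aldoa (13.9%) and Tpi1 (7.51%) were shared in part. The isoforms named for neurons and astrocytes stood at the other end, with 0.255% of Eno2 and 0% of Aldoc shared. Some rows also hold reads from other isoforms of the gene: the Gapdh row had 3462 distinct stretches found at Gapdh alone over all its annotated transcripts, so 3.38% of them lay in the reference mRNA. The Gapdh row also overlaps Iffo1 and the Pkm row overlaps Gm49759, and no strand setting of the counting is stated.

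**Figure D1:**
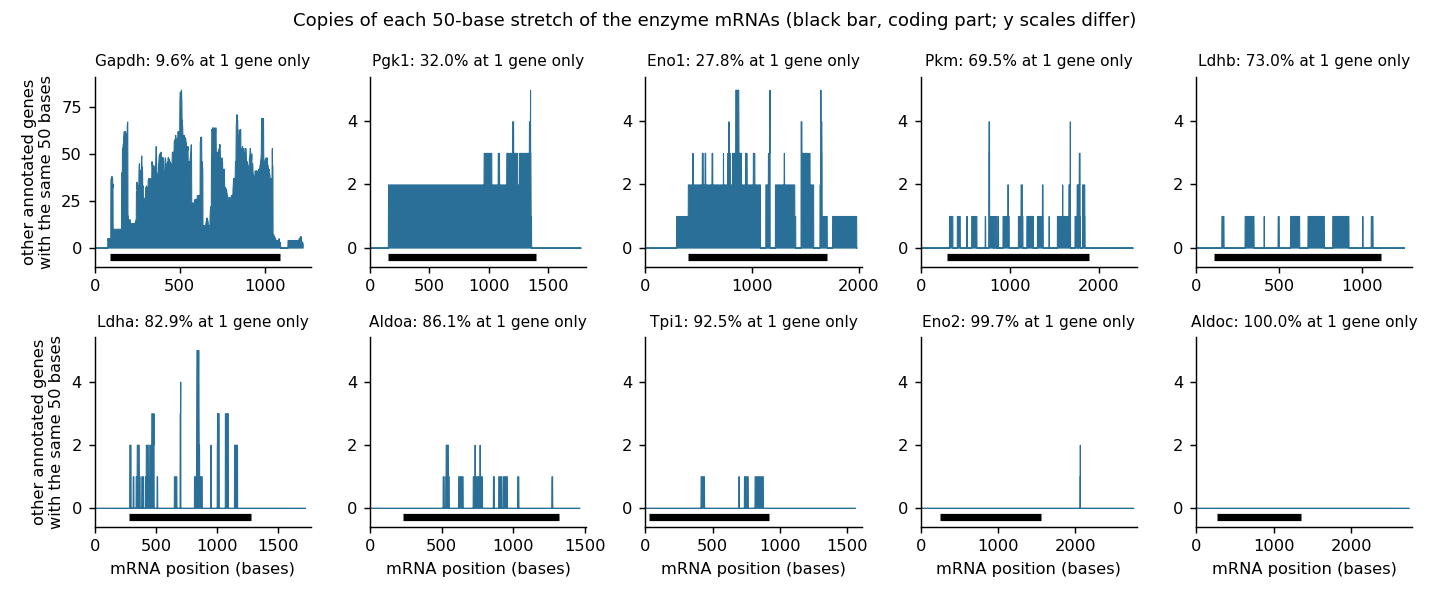
Number of other annotated genes that hold the same 50 bases (y axis, scales differ between panels) at each position of the reference mRNA (x axis, bases from its start) for the 10 enzymes, with the coding part as a black bar. Gapdh reaches 84 other genes and Pgk1 and Eno1 are shared over most of the coding part, whereas Eno2 and Aldoc are found almost wholly at 1 gene.

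The copies belonged to 268 genes, of which 256 were annotated as pseudogenes. Gapdh had 222 of them (213 pseudogenes, 205 with reads), Ldha 14, Eno1 9, Pkm 7, Aldoa 6, Pgk1 5, Eno2 2, Tpi1 2 and Ldhb 1. For Gapdh, the reads counted on pseudogenes outnumbered those counted on the gene itself. The Gapdh row held 336, 328 and 316 counts in the controls and 259, 372 and 295 in the p300-ifKOs. Its pseudogenes together held 1624, 1590 and 1437 in the controls and 2198, 1751 and 1822 in the p300-ifKOs. Pseudogenes thus took 84.5% of the counts of Gapdh and its pseudogenes together. For each of the other enzymes the pseudogene share was at most 1.19%, the value of Pgk1, whose pseudogenes held between 2 and 8 counts per library. A count on a pseudogene can come from a transcript of that pseudogene or from a transcript of the parent that was aligned there, and these cannot be told apart in a table of counts.

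Among single copies, the row with the most counts was Peli2, a protein-coding gene for a ubiquitin ligase that shares 84 stretches with Gapdh. Peli2 had 627, 561 and 567 normalized counts in the controls and 557, 602 and 557 in the p300-ifKOs, with overlapping groups. The pseudogene 3000002C10Rik followed with 198, 200 and 154 normalized counts in the controls and 271, 200 and 186 in the p300-ifKOs. Gm5069 had 93.5, 104 and 75.5 in the controls and 170, 99.9 and 120 in the p300-ifKOs, and its log2 difference of 0.51 (SE 0.28, unadjusted p = 0.0658) had the smallest p of the 12 most counted copies. The others of these 12 were Gm9522, Gm8756, Gm5430, Gm12070, Gm12419, Gm3222, Gm14148 and Gm9164, all copies of Gapdh, and Gm6560, a copy of Pkm. No copy passed the DESeq2 test between genotypes (0 of 268, against 0.0061% of all genes tested). At an unadjusted p under 0.05 there were 0 in DESeq2, against 1.32% of all genes, and 1 in edgeR. Only 48 of the 268 copies had a mean normalized count of at least 10, so most had few reads for a test. Of the 45 copies of Gapdh with a mean normalized count of at least 10, 37 had a positive log2 difference, against 49.3% of all genes at that level. Those copies share reads and parent sequence and are not independent of each other.

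The level of each enzyme was then read per length, in TPM (counts divided by exonic length and scaled to 1 total in every library). Aldoa stood highest, with 2160, 2147 and 1937 TPM in the controls and 2873, 2035 and 2250 TPM in the p300-ifKOs, and ranked 24 among all genes. The other aldolase, Aldoc, followed with 1029 ± 59.9 TPM in controls and 1025 ± 105 TPM in p300-ifKOs (SD, n = 3 in each group here and below). Eno2 had 831 ± 37.3 TPM in controls and 858 ± 21.1 TPM in p300-ifKOs. These 3 transcripts kept their order in 6 of 6 libraries with ranges that did not overlap.

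A middle group held Tpi1 (616 ± 41.5 TPM in controls, 716 ± 108 TPM in p300-ifKOs), Ldhb (521 ± 7.79 and 582 ± 131 TPM) and Pkm (492 ± 16.4 and 513 ± 30.8 TPM). Ranges over the 6 libraries overlapped between Eno2 and Tpi1, between Tpi1 and Ldhb and between Ldhb and Pkm. Within a library, Ldhb exceeded Pkm in 5 of 6 and the other pairs kept their order in 6 of 6. Ldha (233 ± 7.99 and 255 ± 37.5 TPM) and Eno1 (131 ± 11.5 and 148 ± 26.5 TPM) stood lower. The lowest levels were those of the enzymes with a fully shared coding sequence. Pgk1 had 26.6 ± 2.46 TPM in controls and 30.6 ± 7.93 TPM in p300-ifKOs, and Gapdh 12.4 ± 0.0857 TPM in controls and 10.7 ± 1.79 TPM in p300-ifKOs. Gapdh, a textbook housekeeping gene, thus ranked 9639 among all genes of the table.

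Dividing by exonic length treats every base as countable. That length joins the exons of all annotated transcripts of a gene and can exceed the reference mRNA, which lowers the TPM. It was 4133 bases for Gapdh (reference mRNA 1272), 5379 for Eno1 (2027) and 4705 for Eno2 (2795). On a second scale, CPM (counts scaled to the library total) was divided by the number of stretches of the reference mRNA found at 1 gene only, per 1000 such stretches. On that scale the control means were 1254 for Aldoa, 387 for Pkm, 372 for Eno2, 334 for Eno1, 320 for Aldoc, 307 for Tpi1, 232 for Ldhb, 141 for Ldha, 114 for Gapdh and 27.3 for Pgk1. Aldoa remained highest. Eno1 moved from below Ldha to the level of Eno2, and Gapdh moved above Pgk1. The stretches of the reference mRNA made up 13.5% of those found at 1 gene only over all transcripts of Eno1 and 53.1% for Eno2, while the counts of a row come from all its transcripts, so this order holds for that scale alone. Neither scale gives the true level of Gapdh. The first divides by bases that cannot be told from pseudogenes and by exons outside the reference mRNA. The second leaves 117 stretches in the mRNA while the row also takes reads from its other isoforms.

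**Figure D2:**
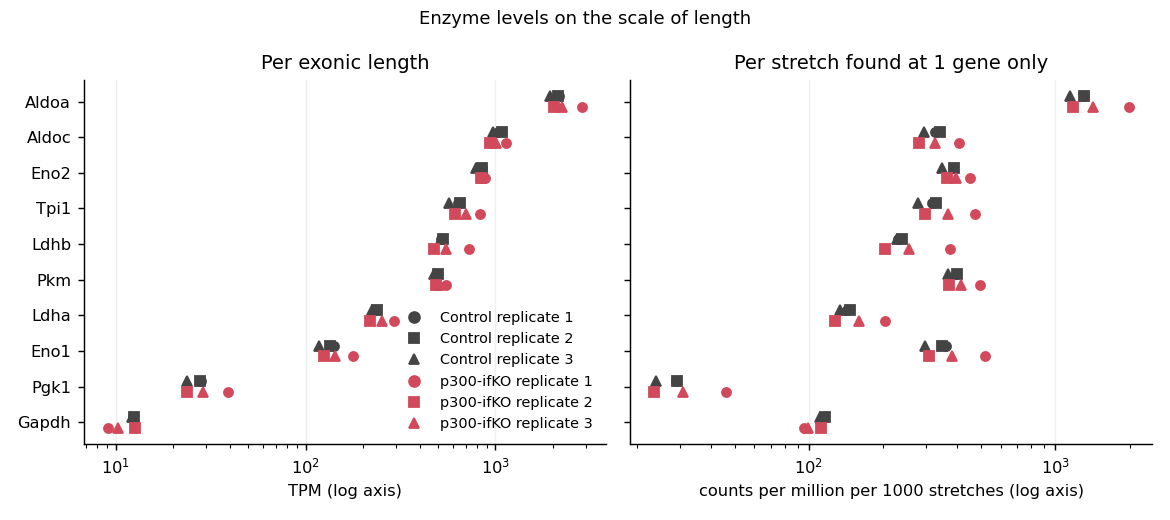
Level of each enzyme in each library on log axes, per exonic length in TPM (left) and as CPM per 1000 stretches of the mRNA found at 1 gene only (right). Grey points are controls, red points p300-ifKOs, and the marker shape gives the replicate. Gapdh and Pgk1 lie lowest in TPM, near 12.4 and 26.6 in controls, and Eno1 rises to the range of Eno2 on the right.

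Isoform pairs were compared as ratios within a library, which need no scaling for depth between libraries. A ratio does not remove the length trend where isoforms differ in length. Aldoa has an exonic length of 2911 bases and a reference mRNA of 1511 bases, and Aldoc 3263 and 2786. The exonic lengths are those used in the ratios and in the rho values. The ratio of Aldoc to Aldoa per exonic length was 0.480, 0.505 and 0.499 in the controls and 0.397, 0.459 and 0.445 in the p300-ifKOs. Each p300-ifKO library was below each control library, and the log2 ratio differed by -0.19 (exact two-sided permutation test, p = 0.1, the smallest that 3 mice against 3 can give, adjusted over the 3 ratios p = 0.3). Of 17070 genes with a mean normalized count of at least 10, 4.42% had a ratio to Aldoa that was likewise lower in every p300-ifKO library. The difference was -0.13 without p300-ifKO replicate 1, the library with the lowest ratio. Per stretch found at 1 gene only, the ratio was between 0.205 and 0.261, with the same log2 difference. Taken alone, Aldoc had a log2 difference of 0.059 between genotypes and Aldoa one of 0.27. Summed over 10 astrocyte markers, normalized counts ran from 122284 to 126379 in controls and from 109258 to 120313 in p300-ifKOs, without overlap. Of the 10 markers, 8 had a negative log2 difference (median -0.074) and 0 passed the test. Among them, 1 (Slc1a3) lay below the controls in every p300-ifKO library, against 3.37% of genes with a mean of at least 10. Slc1a2 and Slc1a3 had the most counts of these markers, with means of 65436 and 18752, and so weighed most in the sum. Slc1a2 had overlapping groups. The parts of the astrocyte markers and of the length trend in the ratio were not tested. In whole tissue, fewer cells of a type and less RNA per cell cannot be told apart.

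The ratio of Eno2 to Eno1 was 6.06, 6.35 and 6.65 in the controls and 4.99, 6.76 and 5.95 in the p300-ifKOs. The groups overlapped, with a log2 difference of -0.12 (exact two-sided permutation test, p = 0.5, adjusted p = 0.75) that came to -0.0018 without p300-ifKO replicate 1. This ratio also depended most on how length was counted: per stretch found at 1 gene only it was between 0.876 and 1.19. Ldhb to Ldha, whose products form the subunits of lactate dehydrogenase, was 2.18, 2.21 and 2.31 in the controls and 2.48, 2.16 and 2.17 in the p300-ifKOs. These groups overlapped as well (log2 difference 0.017, exact two-sided permutation test, p = 1, adjusted p = 1), and per stretch found at 1 gene only the ratio was between 1.59 and 1.83.

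**Figure D3:**
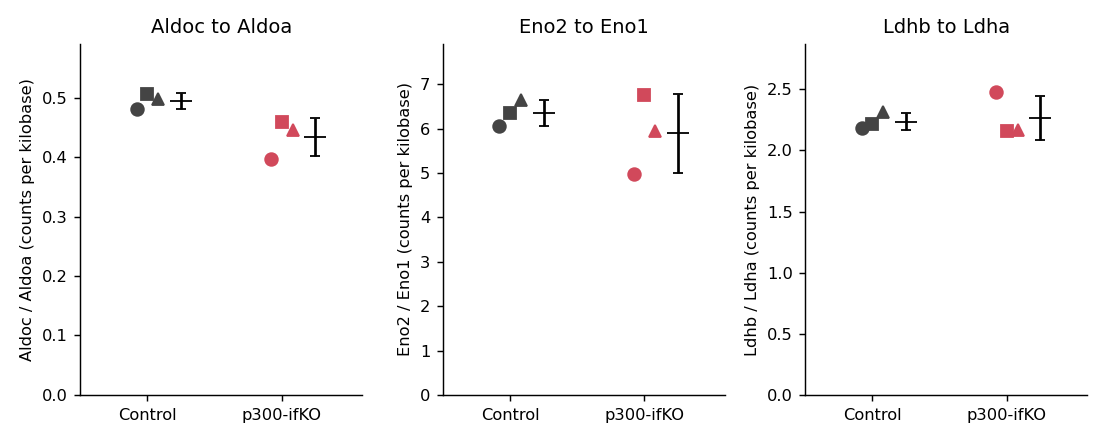
Ratio of counts per kilobase of exonic length for Aldoc to Aldoa, Eno2 to Eno1 and Ldhb to Ldha in each library (points, marker shape by replicate) with the mean and SD of 3 mice per group (black bars), on axes that start at 0. Only for Aldoc to Aldoa do the groups stay apart, at 0.480 to 0.505 in controls and 0.397 to 0.459 in p300-ifKOs.

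The comparison of p300-ifKOs with control littermates asked whether loss of p300 in excitatory neurons altered these transcripts. None of the 10 enzymes passed the DESeq2 test (0 of 10, against 0.0061% of all 32773 genes tested; 0 of 10 at an unadjusted p under 0.05, against 1.32% of all genes). In the edgeR quasi-likelihood test the same counts were 0 and 0, and 0.0117% of all genes passed. The adjusted p was 0.99 for each enzyme, and in each the groups overlapped (every p300-ifKO library lay above every control library in 4.09% of all genes, and below in 3.37%). The 9 enzymes other than Gapdh had a positive log2 difference. The median over all 10 was 0.22, beside -0.046 over all genes tested, of which 45.3% were positive. Among genes with a mean normalized count of at least 10, as all the enzymes have, 49.3% were positive. With a filter of at least 10 counts in 3 libraries, the medians were 0.22 for the enzymes and -0.0067 for all genes.

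Of the aldolases, Aldoa had 41014, 41956 and 35897 normalized counts in the controls and 62126, 37404 and 43715 in the p300-ifKOs. One library, p300-ifKO replicate 1, stood above the rest, and the log2 difference was 0.27 (SE 0.20, 95% interval -0.12 to 0.66). Aldoc had 22081, 23771 and 20062 normalized counts in the controls and 27642, 19235 and 21808 in the p300-ifKOs. Here the same library was the highest and p300-ifKO replicate 2 the lowest, with a log2 difference of 0.059 (SE 0.17, 95% interval -0.27 to 0.39). Tpi1 had 11365, 11960.0 and 9972 normalized counts in the controls and 16980.2, 10688 and 12909 in the p300-ifKOs, and its log2 difference of 0.29 (SE 0.19, 95% interval -0.087 to 0.66) had the smallest unadjusted p of the enzymes, 0.133.

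Further down the pathway, Pgk1 had 411, 420.2 and 339 normalized counts in the controls and 654, 336 and 430.1 in the p300-ifKOs (log2 difference 0.28, SE 0.25, 95% interval -0.22 to 0.78). Its interval was the widest of the 10 enzymes. Eno1 had 4939.7, 4849 and 4054 normalized counts in the controls and 7066, 4236 and 5119 in the p300-ifKOs (log2 difference 0.25, SE 0.20). Eno2 had 26169.9, 26925 and 23597 in the controls and 30822, 25049 and 26631 in the p300-ifKOs (log2 difference 0.11, SE 0.13, 95% interval -0.15 to 0.36). In both enolases p300-ifKO replicate 1 was the highest and control replicate 3 the lowest library.

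Pkm, the pyruvate kinase of brain, had 16357, 16836 and 15056 normalized counts in the controls and 20313, 15366 and 16876 in the p300-ifKOs (log2 difference 0.12, SE 0.14, 95% interval -0.16 to 0.41). Ldha had 5088, 5317 and 4719 in the controls and 7217, 4570.4 and 5574 in the p300-ifKOs (log2 difference 0.20, SE 0.18). Ldhb had 5269.8, 5581 and 5177 in the controls and 8480.4, 4679.9 and 5728 in the p300-ifKOs (log2 difference 0.24, SE 0.22). Here the highest library, p300-ifKO replicate 1, and, for Ldha and Ldhb, the lowest, p300-ifKO replicate 2, belonged to the same genotype.

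Gapdh was the only enzyme with a negative log2 difference in this fit. It had 334, 345 and 322 normalized counts in the controls and 278, 329 and 284 in the p300-ifKOs, so that p300-ifKO replicate 1 was its lowest library, and the log2 difference was -0.17 (SE 0.15, 95% interval -0.47 to 0.14). The pseudogenes of Gapdh, summed, had 1615, 1670.5 and 1466 normalized counts in the controls and 2361, 1547 and 1757 in the p300-ifKOs. Over the control mean, the sum lay at 0.58 (log2) in p300-ifKO replicate 1, where the Gapdh row lay at -0.26 and the median of the other 9 enzymes at 0.61. The sum had means of 1584 ± 105 in controls and 1888 ± 422 in p300-ifKOs (SD, n = 3, exact two-sided permutation test, p = 0.3). With the pseudogene counts added to the Gapdh row, its log2 difference turned to 0.19 and all 10 enzymes were positive. The direction for Gapdh therefore depended on whether these counts were included, and in neither case did it pass the test.

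**Figure D4:**
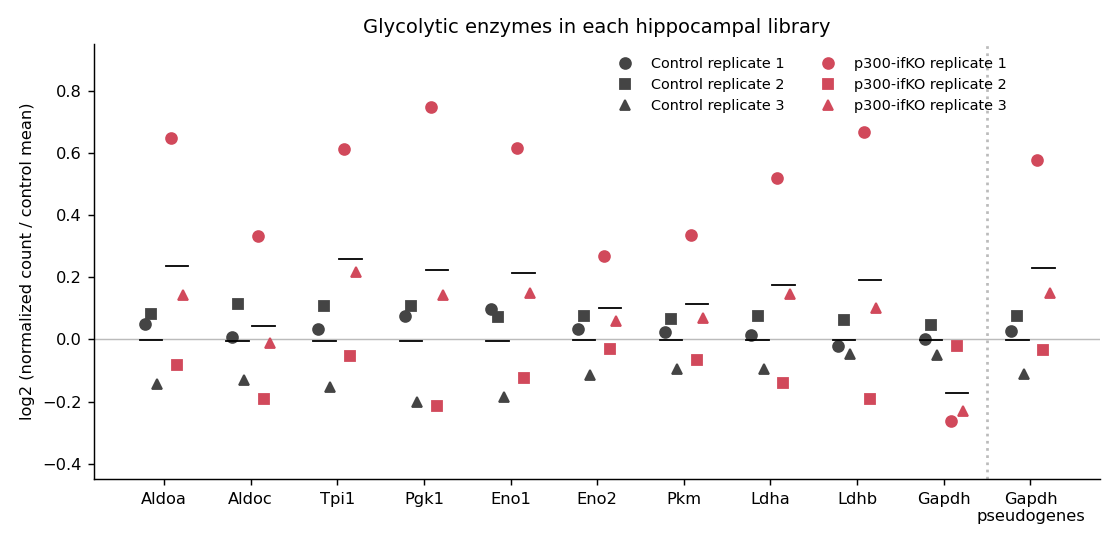
Normalized count of each enzyme in each library over its control mean, on a log2 scale, with the summed pseudogenes of Gapdh on the right of the dotted line. Grey points are controls, red points p300-ifKOs, marker shapes give the replicate and black bars the mean of the 3 libraries. In p300-ifKO replicate 1 (red circles) the 9 enzymes other than Gapdh lie between 0.27 and 0.75, the pseudogenes at 0.58 and Gapdh at -0.26.

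The enzymes shared their highest and lowest libraries. For 9 of the 10 enzymes p300-ifKO replicate 1 was the highest library, control replicate 3 was the lowest for 5 and p300-ifKO replicate 2 for 4. Over the 9 enzymes other than Gapdh, the median log2 distance to the control mean was 0.61 in p300-ifKO replicate 1, 0.14 in replicate 3 and -0.12 in replicate 2. In the controls it was 0.034, 0.077 and -0.13. From highest to lowest, this is the reverse of the order of the 6 libraries by their rho with exonic length: -0.65, -0.44, 0.25, 0.29, 0.61 and 0.62. The part of the length trend in the enzymes' differences was not tested. With smooth offsets for length and GC content, the median log2 difference of the 10 enzymes was 0.094 and 8 of 10 were positive. With 1 surrogate variable it was -0.055 and 1 of 10 was positive. That variable was 0.10, 0.077 and 0.44 in the controls and -0.82, 0.32 and -0.13 in the p300-ifKOs. It is thus not independent of genotype, and its fit can take up part of a genotype difference. Without p300-ifKO replicate 1 the median was 0.0049 and 6 of 10 were positive. Without p300-ifKO replicate 2 it was 0.37, with 6 of 10 at an unadjusted p under 0.05, against 12.8% of all genes in that fit, and 0 past the test, which 926 genes (2.89%) passed.

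**Figure D5:**
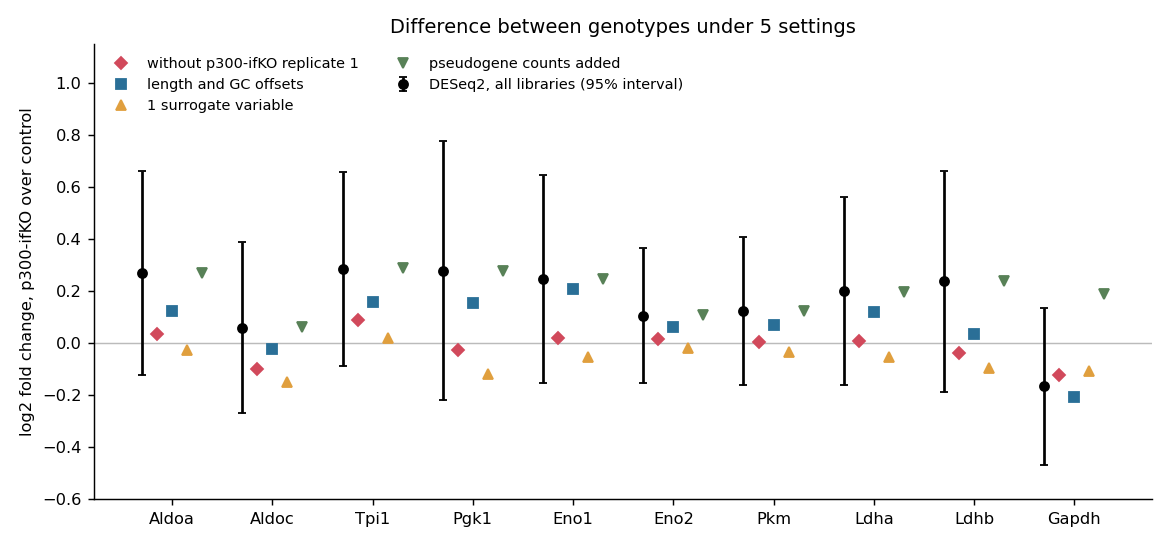
Log2 fold change of each enzyme, p300-ifKO over control, from DESeq2 on all 6 libraries (black, with 95% intervals), with length and GC offsets, with 1 surrogate variable, with pseudogene counts added and with p300-ifKO replicate 1 left out. Every black interval spans 0, and the median over the enzymes goes from 0.22 to 0.0049 without replicate 1 and to -0.055 with the surrogate variable.

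Together the 10 enzymes took 0.534%, 0.543% and 0.479% of all counts in the controls and 0.730%, 0.485% and 0.568% in the p300-ifKOs. The means of 0.518% ± 0.0346 and 0.594% ± 0.125 (SD, n = 3) overlapped in their libraries (exact two-sided permutation test, p = 0.4).

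The rest of the pathway showed no change past the test either. Of 48 other genes of glucose transport, glycolysis, its regulation and pyruvate use, 46 had reads, 27 with a positive and 19 with a negative log2 difference (median 0.054), and 0 passed the DESeq2 test, with 1 at an unadjusted p under 0.05 (1.32% of all genes were). All 3 p300-ifKO libraries lay above the controls for 1 of the 42 genes with a mean normalized count of at least 10, against 4.09% of all genes at that level. The hexokinase family gene Hkdc1 had a log2 difference of 0.37 (SE 0.22) with overlapping groups. The 9 genes of the hexose steps had a median of 0.15, with 7 positive.

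Among the remaining triose steps (10 genes, 8 with reads, median 0.066), the smallest p values belonged to Eno3, the muscle enolase, at 0.31 (SE 0.19), and Bpgm, which makes 2,3-bisphosphoglycerate, at 0.23 (SE 0.16). Of 9 regulators (median -0.051), Pfkfb3, which makes the activator of phosphofructokinase, had a log2 difference of -0.18 (SE 0.21) and the glucose-6-phosphatase G6pc3 one of 0.21 (SE 0.18). Of 9 transport genes (median 0.13), the glucose transporter family member Slc2a6 was at 0.24 (SE 0.15) and the monocarboxylate transporter Slc16a7 at -0.32 (SE 0.23). In the list of pyruvate use (11 genes, median -0.040), Pdp1, the phosphatase that activates pyruvate dehydrogenase, had 1542, 1551 and 1509 normalized counts in the controls and 1139.5, 1454 and 1391 in the p300-ifKOs (log2 difference -0.21, SE 0.14). Pdp1 was 1 of 3 genes, all from this list, that were lower in every p300-ifKO library, of the 42 with a mean normalized count of at least 10 (3.37% of all genes at that level were). The others, named after their values were seen, were Mpc1, a subunit of the mitochondrial pyruvate carrier, at -0.087 and Pdk1, a kinase that inhibits pyruvate dehydrogenase, at -0.10. Pdhb, a subunit of pyruvate dehydrogenase, was at 0.21 (SE 0.17).

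Median log2 differences were -0.010 for 10 excitatory neuron markers, -0.057 for 10 interneuron markers, 0.17 for 10 oligodendrocyte markers and 0.26 for 9 microglia markers. They were -0.099 for 8 endothelial markers (6 negative), 0.36 for 6 choroid plexus markers (5 positive) and -0.18 for 5 blood markers (5 negative), and 0 markers passed the test in each list. Summed choroid plexus markers ran from 749 to 3777 normalized counts in controls and from 1389.8 to 5479 in p300-ifKOs, and those of blood from 2120.1 to 4063.5 and from 1431 to 3579, with overlap in both. Summed microglia markers ran from 9317 to 10261 normalized counts in controls and from 10282 to 12717 in p300-ifKOs. These sums did not overlap, though the nearest values, 10261 and 10282, were close. Of the 9 markers, 1 lay above the controls in every p300-ifKO library, against 4.09% of genes with a mean of at least 10. The log2 difference was positive for 7 of the 9. An unadjusted p under 0.05 in DESeq2 was found for 3 of the 9, against 1.32% of all genes. The same held for 1 excitatory marker (Neurod2, higher in every p300-ifKO library), 1 astrocyte marker (Slc1a3) and 0 in each other list. Neurod2 and Slc1a3 were named after their values were seen. Sums of the excitatory, interneuron, oligodendrocyte and endothelial markers overlapped between the groups. The microglia sum was highest in p300-ifKO replicate 1, as were the enzymes other than Gapdh. The part of the microglia markers in the enzyme values was not tested.

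Finally, the genes most like Gapdh and Aldoc over the 6 libraries were sought among 12243 genes, by the root mean square difference of mean-centred log2 normalized counts. For Gapdh these were Rhbdd1 (0.0187), Nt5dc3 (0.0189) and Rragd (0.0207), low like Gapdh in p300-ifKO replicates 1 and 3. For Aldoc they were Fkbp1a (0.0248), Ndp (0.0257) and Cnih3 (0.0283), highest like Aldoc in p300-ifKO replicate 1. The search selects for such likeness, so the shared libraries are no separate result. The other enzymes were left out of both searches.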

How the data were processed

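The deposited table gave, for each of 6 hippocampi, the authors' raw read counts per gene, 1 library per mouse. Sample titles set the groups and replicate numbers. Per the study's methods and the submitters' processing notes, single-end reads of 50 bases were trimmed (Trim Galore 0.6.4), aligned with STAR 2.6.1 to GRCm38, kept above a mapping quality of 10 and counted on exons of Ensembl release 99 with Rsubread. Reads with several equally good places fall under that limit, so genes with near-identical copies lose counts. Unused columns of per-sample values numbered 0. Totals were 23151568 to 28433823 counts per library.

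Of the 55471 rows, 55230 (99.57%) matched GENCODE release M21 on GRCm38, the source of symbols, coordinates, transcripts and sequences. Exonic length agreed for 99.11%. Aldoa matched 2 rows, and the one with more counts was used. The reference mRNA was the first APPRIS principal transcript. A copy was a gene elsewhere that held at least 1 of its 50-base stretches, on either strand. Another 329 matches, made only through retained introns or repeats (314 with Ldha), were left out after they were seen. Copies outside the annotation were not searched.

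The main test was the two-sided Wald test of DESeq2 (version 1.42.0, R 4.3.3), with no covariate and Benjamini-Hochberg adjustment over 32773 genes at 0.05. Ratios and shares were compared by exact permutation of the 6 libraries. Alternatives were edgeR (version 4.0.16), TMM factors, a filter of at least 10 counts in 3 libraries, a replicate block, length and GC offsets (mgcv 1.9.3), 1 surrogate variable (sva 3.50.0), pseudogene counts added to their parent, and leaving out each library. For ratios, the offset and surrogate fits were added after seeing the data. DESeq2, edgeR, the replicate block, the offsets and the surrogate variable were also checked on simulated data, drawn without a length trend. The other alternatives were not. Members, lists, named genes and tests were chosen with earlier results of these data known. Named genes were the 10 enzymes, up to 12 copies with the highest counts and a mean of at least 10, the 2 smallest p values in each of 5 lists of other glycolysis genes, and the 3 genes most like Gapdh and Aldoc with a mean of at least 100. Results for 1 of these genes and 1 stretch are not reported here.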

Additional observations from a re-analysis of the deposited data

How the results depend on the processing

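The number of enzymes called was 0 under all 13 alternatives, as was that of other glycolysis genes, and that of copies was 0 under the 12 that keep them as genes of their own, while between 0.0061% and 2.89% of all genes passed. The smallest adjusted p of an enzyme was 0.0545 (Tpi1, DESeq2 without p300-ifKO replicate 2). The number of genes called in all was 2, and between 2 and 926 when 1 library was left out (926 without p300-ifKO replicate 2, 3 without control replicate 1). It was 4 with the replicate block. The replicate numbers did not pair the mice (correlations of same-numbered deviations 0.39, -0.42 and 0.14), and the block changed no call of an enzyme. Directions turned in 13 of 130 enzyme values. With 1 surrogate variable the log2 differences were -0.035 for Pkm, -0.027 for Aldoa, -0.15 for Aldoc (unadjusted p = 0.0111), -0.055 for Ldha, -0.098 for Ldhb, -0.055 for Eno1, -0.019 for Eno2 and -0.12 for Pgk1. When 1 library was left out they were -0.0997 to 0.17 for Aldoc, -0.039 to 0.41 for Ldhb and -0.028 to 0.48 for Pgk1, lowest without p300-ifKO replicate 1 and highest without replicate 2. Aldoc was at -0.025 with length and GC offsets, and Gapdh at 0.19 with pseudogene counts added, which the construction of that sum explains. Elsewhere the cause was not tested. The ratio of Ldhb to Ldha (log2 difference) was -0.084 with the offsets, -0.042 with the surrogate variable and -0.048 to 0.051 when 1 library was left out, with the negative value without p300-ifKO replicate 1. Eno2 to Eno1 was 0.037 with the surrogate variable. Aldoc to Aldoa stayed negative, at -0.15 with the offsets, -0.12 with the surrogate variable and -0.24 to -0.13 when 1 library was left out. The exact permutation test of a ratio cannot go below 0.1 here, and Gapdh, at 259 to 372 counts, rests on the fewest reads of the enzymes.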

Other observations

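A second row of the table carries the symbol Aldoa (ENSMUSG00000114515, chromosome 7, 126800790 to 126809108 on GRCm38, next to the main Aldoa gene). It held 35, 36 and 36 counts in the controls and 22, 49 and 28 in the p300-ifKOs, against 35177 to 57845 in the main row, and was used in no comparison.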
